A study of Homo sapiens with 6 samples.

Results

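Subtelomeric peaks outside promoters are the accessible regions near the tips of the autosomes that do not lie at a gene start. They were taken from the peak table of an ATAC-seq experiment in A375, an established human melanoma cell line. A peak of chromosomes 1 to 22 was included when its centre lay within 1 Mb of either end of its hg38 chromosome and more than 3 kb from every start site of a protein-coding or lncRNA gene in GENCODE release 44, with the short arms of the acrocentric chromosomes left out. This position rule used no measured value and gave 1652 of 152800 peaks, spread over 39 chromosome ends with between 17 and 73 peaks each. The 2 groups were A375 cells carrying an empty vector and A375 cells overexpressing HMGB2 (HMGB2OE), with 3 libraries in each. According to the methods, the HMGB2OE line was stable, made by lentiviral transduction of a purchased overexpression plasmid. The paper's reporting summary describes the 3 libraries of a condition as technical replicates of an experiment that was not repeated. Every p-value below therefore measures only the spread between such libraries, and a difference between the lines from another source cannot be told apart from one due to HMGB2. HMGB2 is a chromatin protein that binds and bends DNA with little regard for sequence.

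A chromosome ends in an array of the hexamer TTAGGG, the telomere. Next to it lies the subtelomere, built of segments that have been copied between chromosome ends, with gene families such as the WASH and olfactory receptor genes. Further in the sequence becomes single-copy, is often rich in G and C, and holds ordinary genes with their enhancers. ATAC-seq uses the Tn5 transposase, which cuts open chromatin, so a peak with more reads is more accessible in more of the cells or present in more copies.

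Each library had between 26910189 and 45645294 counts in peaks, and the normalization factors lay between 0.975 and 1.02. In the quasi-likelihood test of edgeR, 2 peaks in HMGB2 exons rose, with log2 fold changes of 1.16 (adjusted p = 0.00822, up to 0.0740 with a library left out) and 1.67 (adjusted p = 0.000113), whereas the peak at its promoter had a log2 fold change of -0.01. Reads of the plasmid's coding sequence and of the gene's exons cannot be told apart. Of 6 melanocyte lineage markers, 4 had a promoter peak, while TYR and DCT had none. Mean normalized counts in empty vector libraries were 3797 at PMEL, 1325 at MITF, 859 at SOX10 and 158 at MLANA. For each marker the highest peak within 3 kb of any of its start sites was read. Such a peak need not lie at the start used in melanocytes, and it may also cover the start of a neighbouring gene. These values therefore do not by themselves show an open melanocyte promoter. Of 8 markers of leukocytes, epithelium, endothelium and fibroblasts, 7 had a promoter peak, with means between 150 and 751, so an open promoter is not particular to the lineage.

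The sequences below come from members that fell and members that rose. The first set comes from the 4 members with the largest falls and from the one that fell nearest to a chromosome end. Each is 100 bases of the hg38 plus strand around the word TGANTCA, the binding sequence of the AP-1 family of transcription factors (FOS and JUN proteins), in capitals.

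PCBP3 intron, chr21:45815818-45815917: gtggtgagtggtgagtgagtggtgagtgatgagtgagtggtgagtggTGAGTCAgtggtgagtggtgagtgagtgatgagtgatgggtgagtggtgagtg
RBCK1, chr20:402012-402111: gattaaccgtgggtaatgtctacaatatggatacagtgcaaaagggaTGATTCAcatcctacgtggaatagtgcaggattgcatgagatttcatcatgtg
CNTN6, chr3:882632-882731: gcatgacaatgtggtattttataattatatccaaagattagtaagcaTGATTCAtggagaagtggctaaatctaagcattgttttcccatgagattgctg
OR4F6, chr15:101795615-101795714: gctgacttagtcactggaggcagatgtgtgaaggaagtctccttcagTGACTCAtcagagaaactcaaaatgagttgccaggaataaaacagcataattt
FAM110C, chr2:68933-69032: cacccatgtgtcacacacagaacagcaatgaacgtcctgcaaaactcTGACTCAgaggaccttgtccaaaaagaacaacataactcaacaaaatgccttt

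The second set is the central 100 bases of members that rose, in which this word was not found. The PRPF6 and COL6A2 peaks had the largest rises, the 7p peak is the called one nearest to its chromosome end among those that rose, and the FAM20C peak lies in the group of rises on 7p.

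PRPF6 intron, chr20:64001727-64001826: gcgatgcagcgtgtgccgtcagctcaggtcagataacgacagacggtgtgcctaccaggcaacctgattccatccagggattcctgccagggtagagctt
COL6A2 intron, chr21:46117122-46117221: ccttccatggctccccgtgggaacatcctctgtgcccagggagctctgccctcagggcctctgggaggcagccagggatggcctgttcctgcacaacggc
7p tip, chr7:87115-87214: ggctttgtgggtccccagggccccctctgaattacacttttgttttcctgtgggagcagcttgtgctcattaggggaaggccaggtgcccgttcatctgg
FAM20C intron, chr7:242464-242563: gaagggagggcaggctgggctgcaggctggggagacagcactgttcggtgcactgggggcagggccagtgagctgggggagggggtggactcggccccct

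The members differed from the other distal peaks of the autosomes in sequence. Their median GC content was 52.2% against 44.2% in 100147 other peaks more than 3 kb from a start site, and the members held a median of 10 CpG dinucleotides against 5. In 442 of 1652 members (26.8%) at least 50% of the words of 31 bases occurred more than once in hg38, against 413 of 5008 sampled other distal peaks (8.25%). A repeat within the peak itself counted as well. That share of repeated members was 66.3% within 100 kb of the end, 48.3% from 100 to 250 kb, 17.7% from 250 to 500 kb and 13.9% beyond. Of all 43 peaks in the table with at least 10 telomere hexamers, 33 were members. The AP-1 word TGANTCA, read on both strands, was in 30.0% of members, 41.5% of other distal peaks and 36.2% of all regions of the same length. The core word of the insulator protein CTCF, on either strand, was in 5.51% of members, 1.48% of other distal peaks and 2.07% of all regions of that length. It was in 10.6% of the repeated members and 3.64% of the rest. In peaks of at least 60% GC it was in 12.4% of members and 7.04% of other distal peaks.

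Of the 1652 members, 1520 passed the filter on low counts and were tested. The 132 that did not pass were mostly repeated sequence, 130 of them with at least 50% of their words found more than once. A peak was called at a p under 0.05 after Benjamini-Hochberg adjustment over all tested peaks, together with at least a 1.5-fold change. In HMGB2OE libraries 29 members were called higher, 1.91% of those tested, beside 1.87% of all 150117 tested peaks. Called lower were 23 members, 1.51% beside 1.44% of all. The median log2 fold change of the members was 0.02, as in the other distal peaks (0.02), and 801 members lay above 0 and 719 below. Both shares of called members were thus close to the background of the table. In 189 members (12.4%) all HMGB2OE libraries lay above all empty vector libraries, beside 12.6% of all tested peaks, and in 163 (10.7%) all lay below, beside 12.5%. With each library left out in turn, 8 of the 29 rises and 9 of the 23 falls kept their call every time. All 29 members that rose were of sequence with under 50% of words repeated, as were 18 of the 23 that fell.

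The share of all distal counts that fell in members described the compartment as a whole, one value per library. It was 1.53%, 1.46% and 1.53% in the empty vector libraries and 1.498%, 1.46% and 1.58% in the HMGB2OE libraries. The groups overlapped, with 1.51% ± 0.0426 (SD, n = 3) against 1.51% ± 0.0615 (SD, n = 3), and the difference of 0.00574 percentage points had p = 0.9 in an exact two-sided permutation test, which with 3 against 3 libraries cannot go below 0.1. The sign of this difference turned without empty vector library 2 (-0.0188) and without HMGB2OE library 3 (-0.0283). No change of the compartment as a whole was detectable.

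The largest fall was in an intron of PCBP3, which encodes an RNA-binding protein, on 21q (chr21:45815699-45816200). Its normalized counts were 58.4, 52.5 and 45.6 in empty vector and 14.5, 17.5 and 13.5 in HMGB2OE libraries. All HMGB2OE libraries lay below all empty vector libraries, a log2 fold change of -1.76 (SE 0.321, adjusted p = 0.000988). The peak is a short tandem repeat, as its sequence shows, and 83.9% of its words occur more than once in the genome, within the peak or elsewhere.

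Upstream of RBCK1, which encodes a subunit of the linear ubiquitin ligase, a peak on 20p (chr20:401728-402229) lay 5.52 kb from the start site. It had 240.4, 242 and 179 normalized counts in empty vector and 96.9, 89.2 and 73.2 in HMGB2OE libraries. Its log2 fold change of -1.34 (SE 0.154, adjusted p = 5.03e-06) had the smallest adjusted p among the named members, and no library decided it, with an adjusted p of at most 9.82e-05 when any one was left out. The RBCK1 promoter peak, at a mean of 667 ± 28.4 and 628 ± 19.7 (SD, n = 3 each), had a log2 fold change of -0.09 (adjusted p = 0.623).

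On 3p a peak whose nearest protein-coding start site, 209.9 kb away, is that of CNTN6, a neuronal cell adhesion gene, fell as well (chr3:882472-882973). Its counts were 232, 226 and 184 in empty vector and 80.8, 116 and 76.6 in HMGB2OE libraries, a log2 fold change of -1.22 (SE 0.159, adjusted p = 2.51e-05). The CNTN6 promoter peak moved in the same direction but was not called. Its counts of 47.3, 59.4 and 73.7 in empty vector and 37.4, 30.03 and 40.5 in HMGB2OE libraries did not overlap. Its log2 fold change was -0.75 (SE 0.258, adjusted p = 0.0766). Near OR4F6, an olfactory receptor gene on 15q, a peak (chr15:101795348-101795849) went from 90.3, 73.1 and 56.2 to 35.7, 30.03 and 29.3, a log2 fold change of -1.19 (SE 0.251, adjusted p = 0.00368). The 15q end had a further fall 146 kb from its tip in OR4F13P, an olfactory receptor pseudogene, from 287 ± 36.5 to 150 ± 20.2 (± SD over 3 libraries each; log2 fold change -0.93), named after its values were seen. In an intron of LMF1, which encodes a chaperone of lipases, the peak chr16:878330-878831 went from 86.2, 90.3 and 74.9 to 24.7, 49.2 and 56.3. Its log2 fold change of -0.97 (SE 0.245, adjusted p = 0.0145) lost its call when empty vector library 2 (adjusted p = 0.0677) or HMGB2OE library 1 (adjusted p = 0.118) was left out.

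The fall nearest to a chromosome end was on 2p, 68.8 kb from the tip and 21.9 kb from the start of FAM110C (chr2:68551-69052). Its counts were 50.03, 64.5 and 53.8 in empty vector and 34.0, 25.02 and 31.5 in HMGB2OE libraries. The log2 fold change was -0.91 (SE 0.269, adjusted p = 0.0380), a call that held only without empty vector library 1 and was lost without each of the other libraries (adjusted p up to 0.180) and with DESeq2 (adjusted p = 0.0660). The 2p end held the most falls of the 39 ends, 4 of its 59 tested members (beside 1.44% of all tested peaks), and no rise. The others there lay nearest to SH3YL1, ALKAL2 and TMEM18, with log2 fold changes of -0.70, -0.88 and -0.59, and were named after their values were seen. The SH3YL1 peak lost its call without empty vector libraries 1 or 2 or HMGB2OE libraries 1 or 2 (adjusted p up to 0.176), with DESeq2 (adjusted p = 0.0898) and under library size alone (adjusted p = 0.0549). The TMEM18 peak passed below the fold limit without empty vector library 3 or HMGB2OE library 2 (log2 fold change as small as -0.50) and under library size alone (-0.57). The ALKAL2 peak, which lies 136 kb from that receptor-ligand gene, was the tightest of them, with 374, 361 and 367 in empty vector and 205, 199 and 193 in HMGB2OE libraries. The median of all tested 2p members was -0.04, with 27 of 59 above 0, and the summed counts of the end were not called (log2 fold change -0.10, adjusted p = 0.144).

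**Figure D1:**
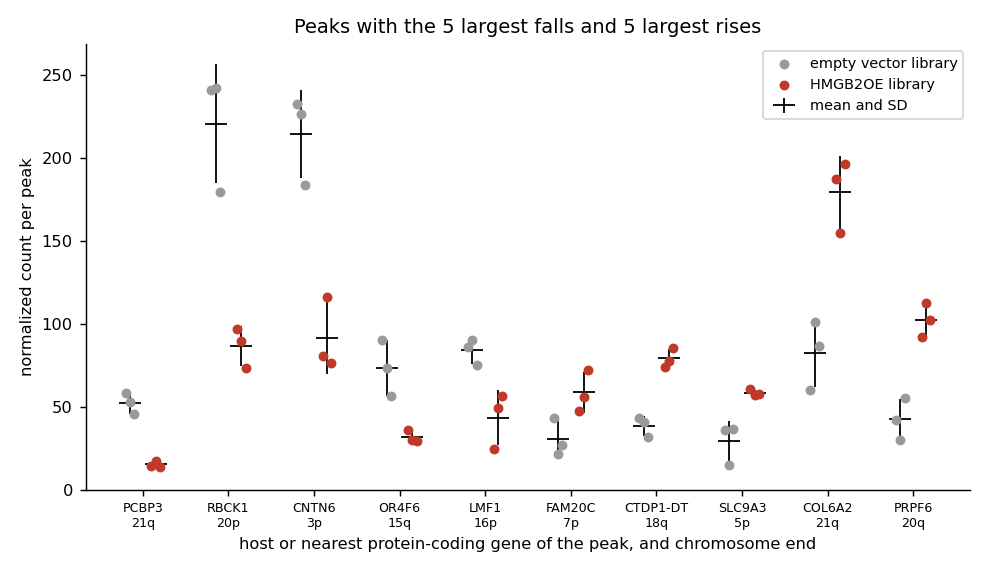
Normalized count (vertical axis, counts per peak) of the 5 members with the largest falls and the 5 with the largest rises, each named by its host or nearest gene and chromosome end. Points are libraries, 3 per group, with the mean and SD, and in each pair of groups the points do not overlap, as the choice of these peaks required.

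The member with the largest rise lay in an intron of PRPF6, which encodes a splicing factor, on 20q (chr20:64001526-64002027). Normalized counts were 41.7, 30.1 and 54.998 in empty vector and 91.8, 113 and 102 in HMGB2OE libraries, a log2 fold change of 1.30 (SE 0.220, adjusted p = 0.000469). The promoter peak of PRPF6 did not pass the test, with a log2 fold change of -0.24 (adjusted p = 0.135). Next came an intron of COL6A2, which encodes a chain of collagen VI, on 21q (chr21:46116921-46117422). It had 59.8, 100.7 and 86.6 in empty vector and 187, 154 and 196 in HMGB2OE libraries, a log2 fold change of 1.09 (SE 0.169, adjusted p = 0.000175). The peak read as the COL6A2 promoter, chr21:46122068-46122569, had a log2 fold change of 0.10 (adjusted p = 0.655). It may belong to an alternative start site, so the main start of the gene may not have been read. Both rises kept an adjusted p of at most 0.00708 when any library was left out.

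The other rises of this size came from low counts, as did that at PRPF6. The peak chr5:532729-533230 near SLC9A3, a sodium-proton exchanger gene on 5p, went from 36.1, 14.6 and 36.3 to 60.4, 56.7 and 57.4 (log2 fold change 1.05, SE 0.298, adjusted p = 0.0294). Without empty vector library 2 its log2 fold change was 0.68 and its adjusted p 0.198, and the call was also lost without any HMGB2OE library (adjusted p of 0.0696 to 0.108). In an intron of CTDP1-DT, a non-coding gene beside the phosphatase gene CTDP1 on 18q, the peak chr18:79657283-79657784 rose from 43.1, 40.4 and 31.6 to 74.0, 77.6 and 85.6 (log2 fold change 1.04, SE 0.226, adjusted p = 0.00490), and the call held without each library. A FAM20C intron peak on 7p (chr7:242263-242764) went from 43.1, 21.5 and 26.9 to 47.6, 55.9 and 72.0 (log2 fold change 0.97, SE 0.289, adjusted p = 0.0393), a call that was lost without any library other than empty vector library 1 (adjusted p up to 0.192) and with DESeq2 (adjusted p = 0.0659).

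The 7p end stood out by its number of rises. Of its 71 tested members 9 were called higher (12.7%, beside 1.87% of all tested peaks) and none lower, 22 had all HMGB2OE libraries above all empty vector libraries (beside 12.6% of all tested peaks), and the median log2 fold change was 0.22, the highest of the 39 ends. The next 4 Mb of the same arm had a median of -0.02 over 168 distal peaks, with 4 called higher and 6 lower, and the rest of chromosome 7 had 0.01. Of the 9 rises, 8 lay within 52.9 kb in the introns of FAM20C, a kinase gene of the secretory pathway, and in the stretch between it and FOXL3. In that stretch, marked out after its values were seen, 17 of 18 tested members lay above 0 with a median of 0.61. The other 53 tested members of the end had 1 call and a median of 0.11, and the 41 tested promoter peaks of the end had no call and a median of -0.02.

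The 18 members of that stretch had mean normalized counts between 41.1 and 153. The peak chr7:229193-229694 in FAM20C had 91.7, 80.9 and 133 normalized counts in empty vector and 196, 149 and 179 in HMGB2OE libraries, a log2 fold change of 0.78 (SE 0.169, adjusted p = 0.00437). The promoter peak of FAM20C, with means of 1081 ± 78.0 and 1261 ± 9.72 (SD, n = 3 each), had a log2 fold change of 0.22 (adjusted p = 0.0929) and was not called. The number of 7p calls depended on single libraries, with 3 left without empty vector library 2 or without HMGB2OE library 3, 5 without HMGB2OE library 1 and 6 with DESeq2. The ninth rise lay 87.2 kb from the tip in the lncRNA gene ENSG00000232325 and is the called rise nearest to any chromosome end (chr7:86914-87415). It was the most abundant of them, with 420, 471 and 462 in empty vector and 708, 731 and 665 in HMGB2OE libraries, a log2 fold change of 0.64 (SE 0.0932, adjusted p = 9.23e-05, at most 0.00186 when a library was left out). With GC-content offsets its log2 fold change was 0.584, just under the fold limit, so that the call was lost there.

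**Figure D2:**
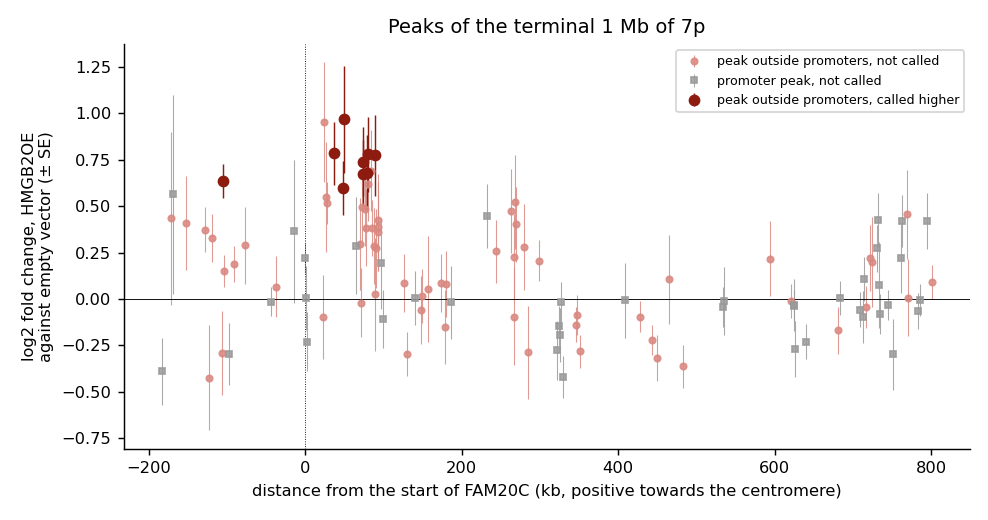
Log2 fold change with its standard error (vertical axis) of each tested peak in the terminal 1 Mb of 7p against its distance from the start of FAM20C (horizontal axis, kb). Of the 9 called members 8 lie in 1 group of 18, between the FAM20C introns and FOXL3, and no promoter peak is called.

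Over the 39 ends, the median log2 fold change of the tested members ranged from -0.16 to 0.22, with 26 ends above 0 and 13 below. Rises were called at 17 ends and falls at 16, both at 5 ends, and neither at 11. After 7p, no end had more than 2 rises (1q, 10p, 12p and 20q), and after 2p no end had more than 2 falls (5q, 9p, 15q and 20p). Without 7p, 20 of 1449 tested members were called higher (1.38%). Across ends, the median of the members and that of distal peaks from 1 to 5 Mb of the same end had a Pearson r of 0.36 and a Spearman rho of 0.36, and with the rest of the chromosome the values were 0.05 and -0.07. These are descriptions over 39 ends that share the same 6 libraries.

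**Figure D3:**
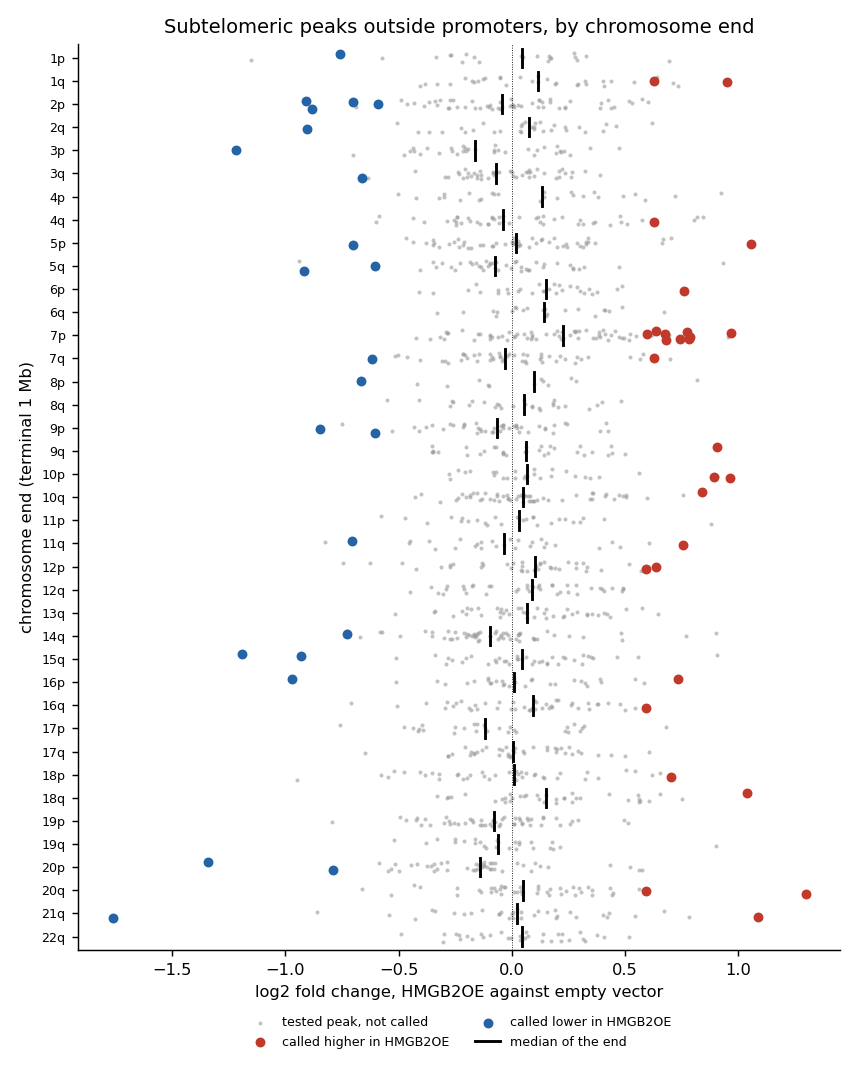
Log2 fold change (horizontal axis) of each of the 1520 tested members at its chromosome end (vertical axis, 39 ends). Red points are called higher, blue points called lower and black bars are the medians, which lie between -0.16 at 3p and 0.22 at 7p.

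To test ends as units, the counts of all distal peaks were summed in windows of 1 Mb along each autosome. Of the 39 terminal windows, 2 were called higher (5.13%, beside 6.13% of all 2723 windows) and 3 lower (7.69%, beside 4.19%), at an adjusted p under 0.05 with no fold limit. This split depended on the scaling, with 7 higher and 3 lower under library size alone and 0 higher and 5 lower with GC-content offsets, which take out each library's trend of count with GC content. The median log2 fold change was 0.01 in both terminal and internal windows.

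The 20p end had the largest fall. Its summed normalized counts were 9118, 9216 and 9099 in empty vector and 7764, 7377 and 7507 in HMGB2OE libraries, so the groups stood well apart, with a log2 fold change of -0.28 (SE 0.0445, adjusted p = 0.000783). The fall was spread over many peaks, since 36 of its 46 tested members lay below 0 and 16 had all HMGB2OE libraries below all empty vector libraries (beside 12.5% of all tested peaks), although only those near RBCK1 and CSNK2A1, the gene of a casein kinase subunit, were called. The latter call was lost without empty vector library 1 or 2 or HMGB2OE library 3 (adjusted p up to 0.0827). The next 4 Mb of 20p had a median of -0.07 over 198 distal peaks. The 3p end went from 5258, 5244 and 5117 to 4708, 4854 and 4354 (log2 fold change -0.17, SE 0.0421, adjusted p = 0.0176), and its peak before CNTN6 was its only call. At 17p, where no member was called, the sums were 4062, 3944 and 3949 against 3676, 3562 and 3650 (log2 fold change -0.13, SE 0.0338, adjusted p = 0.0169).

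The 6p end rose, from 2669.8, 2839 and 2825 to 3057, 3155 and 3156, a log2 fold change of 0.17 (SE 0.0430, adjusted p = 0.0182). Its called member lay 44.8 kb from the start of IRF4, a transcription factor gene active in melanocytes and lymphocytes, with 87.6, 108 and 119 in empty vector and 178, 174 and 186 in HMGB2OE libraries (log2 fold change 0.76, SE 0.147, adjusted p = 0.00181). A start site of an lncRNA gene lay nearer, at 16792 bases. The IRF4 promoter peak had low means of 37.3 ± 12.3 and 37.8 ± 10.7 (SD, n = 3 each), with a log2 fold change of 0.04 (adjusted p = 0.960). The 18q end rose from 4999, 5029 and 4922 to 5560.1, 5433 and 5307 (log2 fold change 0.12, SE 0.0382, adjusted p = 0.0456). With each library left out in turn, only 20p kept its call in every case. The adjusted p reached 0.0861 for 17p (without HMGB2OE library 2, and 0.0501 without empty vector library 1), 0.0716 for 3p (without empty vector library 1, and 0.0700 without HMGB2OE library 3), 0.0816 for 6p (without HMGB2OE library 2) and 0.193 for 18q (without HMGB2OE library 1, and 0.0664 to 0.125 without empty vector libraries 1 and 3 and HMGB2OE library 2). With GC-content offsets the adjusted p was 0.0567 for 6p and 0.120 for 18q.

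The 7p window, in contrast with its peaks, was not called. Its sums of 13851, 14589 and 15304 in empty vector and 15559, 14937 and 15882 in HMGB2OE libraries overlapped (log2 fold change 0.08, SE 0.0492, adjusted p = 0.309). The 6 members of highest count at that end lay outside the group of rises, the strongest of them in an intron of PRKAR1B with a log2 fold change of -0.22 (adjusted p = 0.0939).

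**Figure D4:**
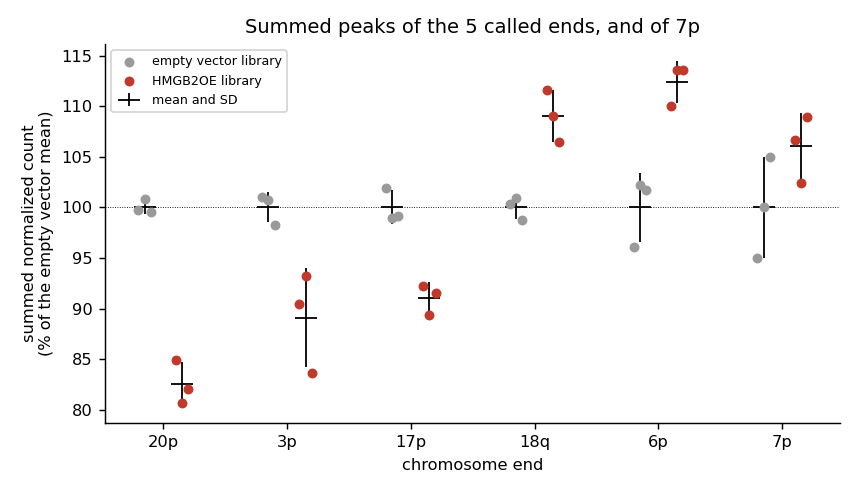
Summed normalized count of distal peaks (vertical axis, percent of the empty vector mean, axis not starting at 0) at the 5 called ends and at 7p. Points are libraries, 3 per group, with the mean and SD, and at 7p the groups overlap.

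Most telomere-repeat members lay below 0, and none passed the test. The 33 members with at least 10 hexamers came from 29 ends, 16 of them within 15 kb of the reference end, and 14 held unknown bases of hg38. Of the 31 tested, 23 lay below 0, none was called, 3 (9.68%, beside 12.5% of all tested peaks) had all HMGB2OE libraries below all empty vector libraries, and the median log2 fold change was -0.20 against 0.02 in the other tested members. The smallest adjusted p among them was 0.108 in edgeR's test. Their summed normalized counts were 7259, 7405 and 6782 in empty vector and 5943, 7099 and 6015 in HMGB2OE libraries. HMGB2OE library 2 lay within the range of the empty vector libraries, and the difference of -11.1% had p = 0.2 in an exact two-sided permutation test chosen after the values were seen. The 10 such peaks outside the members, all tested, had a median of -0.22, with 9 below 0 and 1 at an adjusted p under 0.05. At that limit 5164 of all 150117 tested peaks were higher and 4546 lower. With a library left out, the median of the members ranged from -0.28 (without HMGB2OE library 2) to -0.10 (without HMGB2OE library 1), and it was -0.25 with GC-content offsets.

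In each of 3 members with the most hexamers the libraries of the groups overlapped, and a 10p peak had as many hexamers as the third of them, with a log2 fold change of -0.24 (adjusted p = 0.538). The 5p peak chr5:10768-11269, with 83 hexamers, had 52.8, 52.5 and 64.4 normalized counts in empty vector and 45.1, 52.5 and 48.4 in HMGB2OE libraries (log2 fold change -0.21, SE 0.234, adjusted p = 0.655). Its neighbour chr5:9970-10471, with 78 hexamers, had 113, 168 and 104 against 105, 133 and 86.7 (log2 fold change -0.26, SE 0.182, adjusted p = 0.447). The 1q peak chr1:248945790-248946291, with 69 hexamers, was the strongest of the 3, with 1316, 1311 and 1119 against 1063, 1248 and 929 (log2 fold change -0.21, SE 0.0932, adjusted p = 0.194). In the median telomere-repeat peak 73.1% of the words occurred more than once in hg38, within the peak or elsewhere. Whether a read could be tied to 1 end was not tested. The sources used here do not say how reads with several alignments were counted. A change in telomere length, in the accessibility of telomeres and in the placing of such reads cannot be told apart here.

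**Figure D5:**
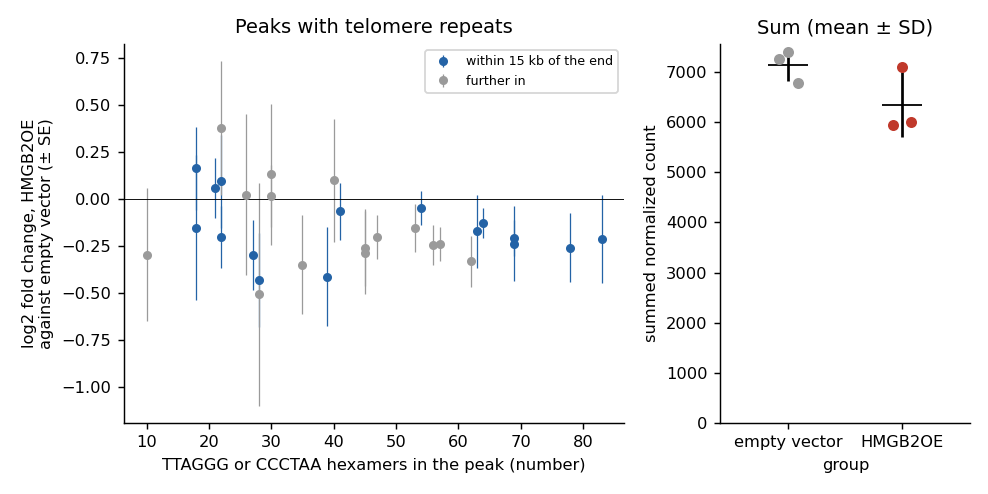
Left, log2 fold change with its standard error (vertical axis) of the 31 tested telomere-repeat members against their number of hexamers (horizontal axis), where 23 lie below 0. Right, the summed normalized count of the 33 members in each library, 3 per group, with the mean and SD, where 1 HMGB2OE library overlaps the empty vector libraries.

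Of the 3 members of highest mean count, 2 resembled mitochondrial DNA. This pair, on 1p at chr1:633781-634282 and chr1:629575-630076, shared 57.2% and 73.1% of their words with the mitochondrial genome, and 6 members of 1p, which took 4.64% of all member counts, shared at least 50%. The peak chr1:633781-634282 had 5844, 4162 and 6740.2 normalized counts in empty vector and 5411, 4426 and 8943 in HMGB2OE libraries, so the groups overlapped (log2 fold change 0.17, SE 0.149, adjusted p = 0.571). The summed counts of the 6 members ordered the libraries as did the 11 peaks on the mitochondrial genome itself, whose sums were 681645, 491683 and 793240 against 636177, 512763 and 1057690. The lowest count was in empty vector library 2 and the highest in HMGB2OE library 3 in both. The pair at 1p had log2 fold changes of -0.01 without empty vector library 2, and of -0.18 and -0.21 without HMGB2OE library 3. The other of the 3 was of single-copy sequence, in an intron of RASA3, which encodes a Ras GTPase-activating protein, on 13q (chr13:114065060-114065561), with means of 3058 ± 319 and 3379.6 ± 204 (SD, n = 3 each, log2 fold change 0.14, adjusted p = 0.283).

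Gene families known at chromosome ends were described next. Of 175 members in or nearest to WASH, OR4F, TUBB8, DUX4, FRG1, FRG2, FAM110C, DIP2C or ZMYND11 genes, 119 were tested, 1 was called higher (0.840%, beside 1.87% of all tested peaks) and 3 lower (2.52%, beside 1.44%), with a median of -0.04. Both OR4F falls were those on 15q, and a single FRG1 peak on 4q rose (log2 fold change 0.63, adjusted p = 0.00946), 527 kb from the FRG1 start, a call lost without empty vector library 2 or HMGB2OE library 2 (adjusted p up to 0.0621) and under the fold limit with GC-content offsets (log2 fold change 0.58). The 8 tested members in or nearest to DUX4, the germline transcription factor in the repeat array of 4q and 10q, had no call and a median of -0.17, 7 of them below 0. For FRG2, a gene near those arrays, 27 of 57 members were tested and none was called, with a median of -0.08.

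By distance, the tested members within 100 kb of the end had 2 rises and 1 fall in 117 and a median of -0.04, and those from 100 to 250 kb had 6 and 4 in 261 and a median of -0.02. From 250 to 500 kb there were 11 rises and 8 falls in 386, with a median of 0.03, and beyond there were 10 and 10 in 756, with 0.03. The shares of rises in these classes were 1.71%, 2.30%, 2.85% and 1.32% beside 1.87% of all tested peaks, and those of falls 0.855%, 1.53%, 2.07% and 1.32% beside 1.44%. Just inside the limit of 1 Mb, a 9p peak at 998.8 kb had a log2 fold change of 0.02, and just outside it the next distal peak of 9p had -0.55 (adjusted p = 0.298). At the limit of 3 kb from a start site, the nearest member, at 5q near TRIM52, had 0.14, and the nearest peak on the other side, at 18p, had 0.05. By place, intronic members had 13 rises and 7 falls in 680, intergenic members 15 and 14 in 760, and exonic members 1 and 2 in 80, shares of 1.91%, 1.97% and 1.25% for rises and 1.03%, 1.84% and 2.5% for falls.

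The called members of each direction differed in base composition and in the AP-1 word. The members that rose had a median GC content of 55.6% and those that fell one of 45.6%. Among members under 40% GC, 0 of 105 rose and 4 fell (3.81%), with a median log2 fold change of -0.15. Among those of at least 60% GC, 9 of 359 rose (2.51%, beside 1.87% of all tested peaks). In that class 1 fell (0.279%, beside 1.44%), and the median was 0.04. Other distal peaks under 40% GC had a median of -0.08, with 1.02% called higher and 3.18% lower. Other distal peaks of at least 60% GC had a median of 0.03, with 1.84% higher and 0.471% lower. The same directions with GC content were thus seen away from the chromosome ends. With GC-content offsets the counts were 24 members higher and 22 lower. The word TGANTCA was in 18 of the 23 members that fell (78.3%), in 9 of the 29 that rose (31.03%) and in 29.9% of all tested members. Over all 455 tested members with the word there was no lean to one side, with 230 above 0 and 225 below, 66 without overlap of the groups in each direction, and a median log2 fold change of 0.0032 against 0.02 in the members without it. Outside the chromosome ends it was in 51.8% of 1677 falls, 44.7% of 2233 rises and 41.9% of all tested distal peaks. A difference in this word between the ends and the rest was not tested. The share of falls with the word varied when a library was left out. It was 13 of 17, 8 of 12 and 14 of 23 without empty vector libraries 1, 2 and 3. Without HMGB2OE libraries 1, 2 and 3 it was 9 of 13, 11 of 16 and 13 of 19. Of the 91 members with the CTCF word, 69 were tested and none was called, with a median of -0.07 and 1 at an adjusted p under 0.05, while 0.345% and 0.551% of the other distal peaks with the word were called higher and lower.

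Genes that keep telomeres were examined at their promoters. For each of 13 genes of the shelterin complex, telomerase, the CST complex and their partners, the strongest promoter peak was read. None was called, and the median log2 fold change was -0.07, with a range from -0.56 to 0.04. The lowest value was at TERT, the catalytic subunit of telomerase, which lies on 5p outside the members (chr5:1294954-1295455). Its promoter peak had 133, 114 and 114 normalized counts in empty vector and 77.4, 85.1 and 81.1 in HMGB2OE libraries, and its adjusted p of 0.0381 passed the threshold while its fold did not. The shelterin genes TERF1, TERF2 and POT1 had log2 fold changes of -0.03, -0.01 and -0.07, with adjusted p-values of 0.896, 0.965 and 0.622.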

How the data were processed

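ATAC-seq was done on A375 cells, in 3 empty vector and 3 HMGB2OE libraries. The authors trimmed reads (Trim Galore 0.6.7, cutadapt 4.0), checked them with FastQC 0.12.1, aligned them to hg38, took out duplicates (Picard), used MACS2 for peak calling with public melanocyte data as control, joined nearby peaks, and deposited the raw count per peak and library from featureCounts, without normalization. How reads with several alignments were counted is not given in the sources used here. No value column was left unassigned.

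The test was that of edgeR 4.0.16 under R 4.3.3 on all peaks (filterByExpr, TMM, quasi-likelihood F test, Benjamini-Hochberg adjustment over 150117 peaks). Calls needed an adjusted p under 0.05 and a 1.5-fold change. A normalized count is the count scaled by the mean effective size of the libraries over that library's own (its total, corrected by TMM), and SE is the log2 fold change over the square root of F. Windows of 1 Mb with at least 5 tested distal peaks were tested by the same method on summed counts. Intervals between libraries cover technical spread and counting error only. The pipeline was tested on simulated counts. Telomere hexamers, motif words and words of 31 bases were counted on both strands of hg38. Every 20th other distal peak was sampled for repeated words.

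Peaks named were the 5 largest rises and 5 largest falls that were called without overlap of libraries, the called member nearest to its end in each direction, the 3 members with the most hexamers and the 3 of highest mean count. Ends named were called windows and ends with the most calls. The members, gene lists and tests were chosen with earlier results of these data known. The alternatives were other scalings, DESeq2 1.42.0, other filters, GC-content offsets, the replicate number as a block, leaving out each library, and other limits of distance and fold. The transcript-type start sites, the members under 50% repeated or without mitochondrial words, and the repeats of the 7p, AP-1 and telomere-repeat results under each setting were added after seeing the data. The sequences of the telomere-repeat peaks are not reported here.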

Additional observations from a re-analysis of the deposited data

How the results depend on the processing

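With the main settings 29 members were called higher and 23 lower. With no fold limit the counts were 47 and 40 of 1520, beside 5164 and 4546 of all 150117 tested peaks. Under the other limits the number of peaks tested differs by construction. The terminal 500 kb had 19 and 13 of 764 (2.49% and 1.70%), and the terminal 2 Mb 61 and 46 of 3195 (1.91% and 1.44%). More than 10 kb from a start site there were 17 and 11 of 803 (2.12% and 1.37%). The main shares of all tested peaks were 1.87% and 1.44%. With a library left out, the members called ranged from 14 (without empty vector library 2) to 31 higher and from 12 (without empty vector library 2) to 23 lower. There were 15 higher without HMGB2OE library 3, and 18 higher and 13 lower without HMGB2OE library 1. Terminal windows called numbered 10 under library size alone and 2 to 5 with a library left out, 2 of them without empty vector library 1 or HMGB2OE library 2. The median log2 fold change of the members moved by less than the spread between libraries under all 20 alternatives, from -0.018 to 0.041, on both sides of 0. The difference in the share of distal counts, 0.00574 percentage points, turned to -0.00345 in the terminal 500 kb, -0.00249 in the terminal 2 Mb, -0.00483 without the 10 highest members and -0.00253 without the members that share words with the mitochondrial genome (added after seeing the data), and with a library left out it ranged from -0.0283 to 0.0314. With a library left out, log2 fold changes ranged from -0.435 to 0.008 for the peak chr5:9970-10471, from -0.181 to 0.363 for chr1:633781-634282 and from -0.208 to 0.381 for chr1:629575-630076. The cause of these changes was not tested. With the replicate number as a block, 34 members were called higher and 24 lower, and 5 terminal windows, but same-numbered libraries shared deviations of -0.0927, 0.197 and 0.13 (Pearson r across peaks), so the numbers were not taken to pair them. Too few counts left 132 of 1652 members untested, and 130 of these were repeated sequence.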
